A study of Mus musculus with 6 samples.

Results

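The DNA repair genes described here are 66 protein-coding mouse genes of the 54532 genes in the deposited expression table. They were chosen by name alone: the Rad, Xrcc, Ercc and Fanc families, Brca1 and Brca2, the Rpa subunits Rpa1 to Rpa3, the Msh and Mlh mismatch repair families, the DNA ligases Lig1, Lig3 and Lig4, Parp1 to Parp3, and the kinases Atm and Atr. No expression value entered that choice. Of the 66 genes, 47 (71.2%) averaged at least 1 FPKM (fragments per kilobase of gene length and depth) over the 6 libraries and were tested, against 51.9% of the 22046 protein-coding genes in the table. For nearly all of the 66 genes, the gene length used for FPKM takes all annotated exons together, not 1 transcript. Levels can therefore be compared only roughly between genes.

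RNA came from mouse pancreatic islets, labelled as beta cells, in 2 groups of 3 libraries. The first was a Bcas2 conditional knockout (Bcas2 cKO, libraries 3, 4 and 5), a knockdown in the wording of the series' design, and the second was a wild-type control (control, libraries 1, 3 and 4). No source used here gives the Cre driver, which part of Bcas2 was deleted, or how old the animals were and of which sex. It is also not stated whether each library is a separate animal, so every p-value speaks of the spread between libraries, and that spread may be technical.

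Cells repair DNA through several pathways. Small base lesions and single-strand breaks go through base excision, bulky adducts through nucleotide excision, copying errors through mismatch repair, and crosslinks through the Fanconi anaemia pathway. Double-strand breaks are either joined end to end or mended from a sister chromatid, present only after replication, by homologous recombination. Adult beta cells rarely divide. BCAS2 is a subunit of the Prp19 splicing complex, and in human cells that complex also binds RPA on single-stranded DNA and takes part in activating ATR. The comparison here asks at what level the repair and checkpoint genes stood in Bcas2 cKO and control islets.

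Bcas2 (ENSMUSG00000005687; chromosome 3, 103171655 to 103179166, GRCm38), the targeted gene, was at 8.76, 8.40 and 9.14 FPKM in Bcas2 cKO libraries 3, 4 and 5, against 10.3, 15.0 and 11.2 FPKM in control libraries 1, 3 and 4. All 3 Bcas2 cKO values lay below all 3 control values, with means of 8.77 ± 0.370 and 12.2 ± 2.51 FPKM (SD, n = 3 each). A 2-sided exact permutation test gave p = 0.1, the smallest that 3 against 3 can give, and limma's adjusted p was 0.0829 (log2 fold change -0.42, SE 0.13). It came under 0.05 without control library 1 (log2 fold change -0.52, adjusted p 0.0492). Limma's adjusted p stayed above 0.05 with no filter on low values (0.178), a pseudocount of 0.1 (0.0823) or a mean of at least 5 FPKM (0.0599).

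The libraries held 16351800 to 16904326 reads on genes in Bcas2 cKO and 15170439 to 15594871 in control. The 66 repair genes took 0.1505 to 0.1656% of them in Bcas2 cKO and 0.1382 to 0.1571% in control, 25448 to 27072 and 20967 to 24492 reads. Other contents of the libraries also moved. All 9 beta cell markers were tested and 3 fell, Slc2a2, Ucn3 and Slc30a8 (summed share 13.9 to 15.2% of reads in Bcas2 cKO, 19.1 to 27.3% in control). That share was mostly Ins1 and Ins2, and neither was called (limma adjusted p 0.436 and 0.379). Both lay wholly below control. Ins1 averaged 38687 and 59247 FPKM in Bcas2 cKO and control, and Ins2 72591 and 135234 FPKM. Mafa lay wholly above control (349 and 228 FPKM in Bcas2 cKO and control) and was not called. Of 14 acinar enzyme genes 4 rose (1.63 to 4.65% in Bcas2 cKO, 0.495 to 1.24% in control), and of 7 macrophage markers 4 rose (summed level 108.3 to 133.9 FPKM in Bcas2 cKO, 87.41 to 106.5 FPKM in control). Of 7 alpha, delta and PP cell markers 1 rose (4.25 to 4.65% of reads in Bcas2 cKO, 3.37 to 3.48% in control). The largest parts of the acinar, macrophage and alpha, delta and PP sums were Ctrb1, C1qa and Gcg, which were not called. All 14 acinar genes, Ctrb1 among them, lay wholly above control, and so did Gcg. Ctrb1 averaged 8580 and 2240 FPKM in Bcas2 cKO and control (limma adjusted p 0.0527). The groups overlapped for C1qa. Of 16 markers of proliferating cells 8 were tested and only Pcna, itself a replication and repair factor, rose (summed level 43.94 to 51.27 FPKM in Bcas2 cKO, 30.64 to 32.91 FPKM in control). None of these lists had a marker at 0 in every library, and none of the tested ductal, lymphocyte, endothelial or stellate cell markers was called. Their part in the results on repair genes was not tested. In such bulk RNA, fewer cells of a type and less RNA per cell cannot be told apart.

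Of the 47 tested repair genes, 4 rose in Bcas2 cKO, among them Rad9a, Xrcc3 and Ercc2, and 8 fell (Atm, Rad9b, Rad51c, Rad51d, Rad51ap2, Xrcc6, Fancf and Rad21). A gene is said to have risen or fallen where limma's test on log2(FPKM + 1) gave a Benjamini-Hochberg adjusted p under 0.05 over all 13723 genes tested. The share that rose was 8.51%, against 6.97% of all genes tested, and the share that fell was 17%, against 7.55%. The values of the 2 groups did not overlap, with Bcas2 cKO above, in 9 of the 47 (19.1%, against 16.8% of all genes tested). With Bcas2 cKO below, they did not overlap in 13 (27.7%, against 21.1%). For 3 of the 47, Rad18, Rad51c and Msh3, 1 group mean was under 1 FPKM, so they were tested only through the other group. Rad18 is among the 9, and Rad51c is among the 13 and the 8 that fell. The share that rose and the share lying above control were near those of all genes; the shares are descriptions, and the list as a whole was not tested. The median log2 fold change of the 47 was -0.02, against -0.03 for all genes tested, with 21 values above 0 and 26 below, from -0.68 to 0.83. The other 35 genes did not pass, and the largest size among them was 0.35. With the pseudocount of 1 FPKM used here, which understates changes of low genes, none reached an absolute log2 fold change of 1; with a pseudocount of 0.1, Rad51c did (-1.03).

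The number called depended on single libraries and on the scale. Without control library 1, 3 or 4 in turn, 3, 4 and 3 repair genes rose and 6, 2 and 0 fell. Without Bcas2 cKO library 3, 4 or 5, 2, 2 and 3 rose and 0, 2 and 2 fell. When libraries were scaled to their total reads, a setting chosen after seeing the data that lifted the all-gene median log2 fold change by 0.117, 6 repair genes rose, 2 fell and their median came to 0.07. The same scaling split all genes into 1393 that rose and 425 that fell, against 957 and 1036 on the deposited scale. Rescaling the libraries without the islet hormone genes gave 2 repair genes that rose and 9 that fell, and 613 and 1247 of all genes. With no filter on low values, so that 32845 genes were tested, 3 rose and 2 fell, and Atm, Fancf, Rad51ap2, Rad51c, Rad51d and Xrcc6 no longer passed. Rad9a and Xrcc3 passed without each of the 6 libraries and under both scalings.

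**Figure D1:**
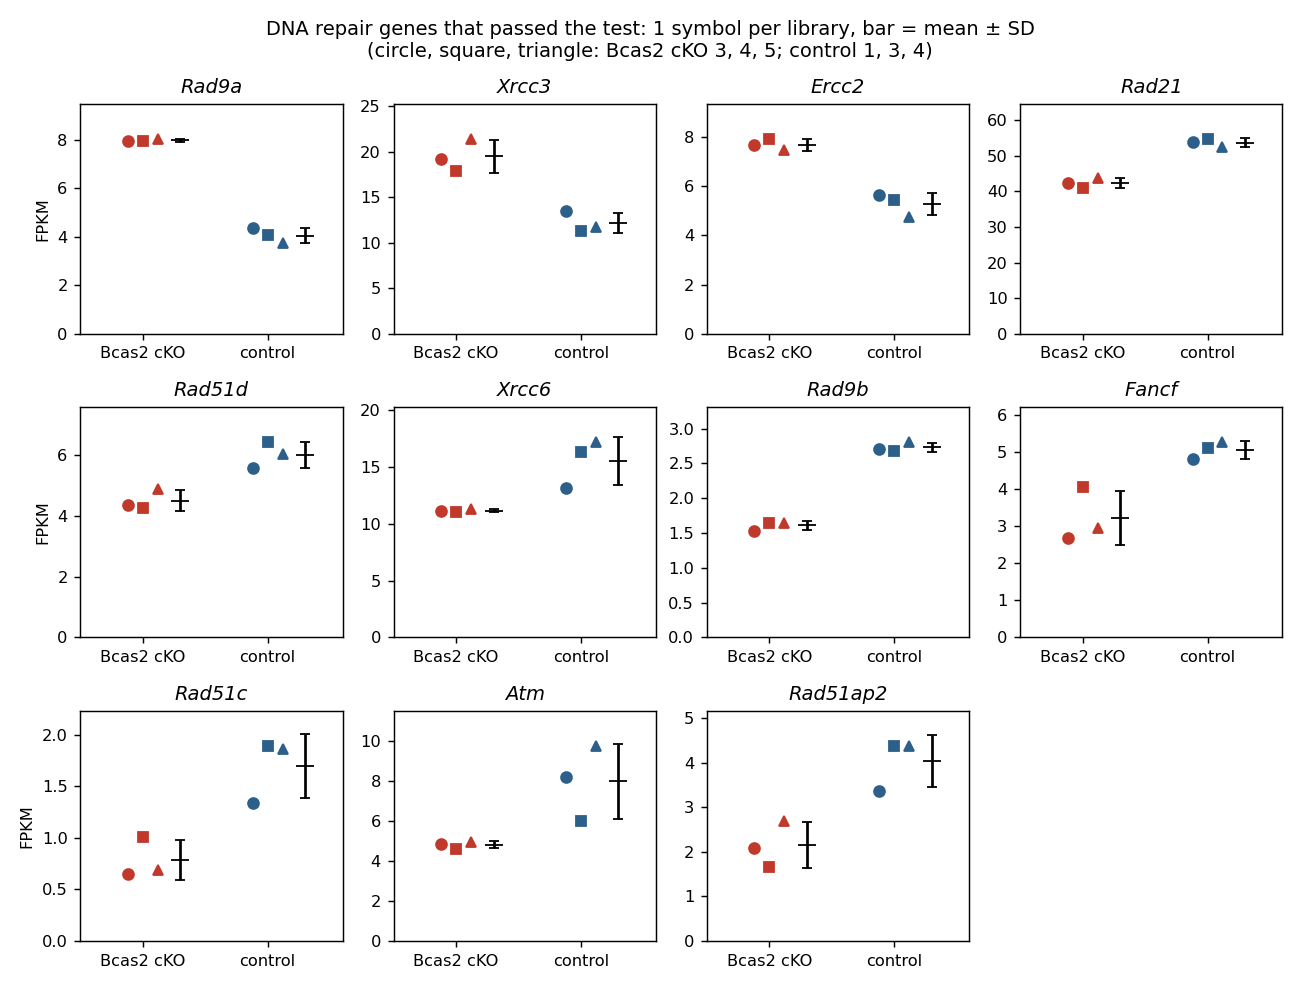
FPKM of 11 of the 12 repair genes that passed the test, 1 panel per gene with its own linear axis from 0, Bcas2 cKO libraries in red and control libraries in blue, 1 symbol per library, with the mean and SD as bars. No panel shows an overlap between the groups; Rad9a is the tightest rise, and the control values of Atm spread from 6.01 to 9.73 FPKM.

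Several repair genes start close to another gene on the opposite strand, so that 1 stretch of promoter lies between them. A protein-coding start on the other strand lay within 1000 bp of 15 of the 47 tested repair genes (31.9%), against 16.5% of the 11439 protein-coding genes tested. Of the called genes, 5 are among them, and their promoters are shown because the data give the level of both genes of each pair. The sequences are RefSeq's for GRCm38.p6, each 250 bases before to 50 after the RefSeq start, all read on the minus strand from 5′ to 3′. Capitals mark matches, on either strand, to the CCAAT box (CCAAT), the GC box (GGGCGG) and the ETS motif (CCGGAAG).
Atm promoter, chr9:53536622-53536921: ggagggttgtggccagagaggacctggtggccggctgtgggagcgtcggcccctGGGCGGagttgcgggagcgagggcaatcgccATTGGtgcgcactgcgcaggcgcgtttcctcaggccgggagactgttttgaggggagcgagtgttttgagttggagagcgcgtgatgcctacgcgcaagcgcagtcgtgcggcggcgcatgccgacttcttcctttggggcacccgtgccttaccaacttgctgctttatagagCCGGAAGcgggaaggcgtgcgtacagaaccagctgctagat
Rad51c promoter, chr11:87404905-87405204: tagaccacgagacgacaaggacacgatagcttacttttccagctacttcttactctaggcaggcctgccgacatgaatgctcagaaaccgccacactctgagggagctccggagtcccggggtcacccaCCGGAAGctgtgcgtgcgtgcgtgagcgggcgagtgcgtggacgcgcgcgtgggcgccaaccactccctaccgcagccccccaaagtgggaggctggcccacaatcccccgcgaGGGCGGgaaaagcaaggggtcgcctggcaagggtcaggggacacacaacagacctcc
Rad9b promoter, chr5:122354156-122354455: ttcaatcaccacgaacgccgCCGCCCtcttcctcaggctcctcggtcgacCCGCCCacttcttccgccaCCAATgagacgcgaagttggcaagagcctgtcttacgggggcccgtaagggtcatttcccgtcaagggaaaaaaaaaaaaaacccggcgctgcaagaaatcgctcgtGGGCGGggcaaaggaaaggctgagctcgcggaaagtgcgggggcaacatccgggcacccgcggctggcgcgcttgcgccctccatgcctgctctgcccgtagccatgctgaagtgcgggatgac
Fancf promoter, chr7:51862218-51862517: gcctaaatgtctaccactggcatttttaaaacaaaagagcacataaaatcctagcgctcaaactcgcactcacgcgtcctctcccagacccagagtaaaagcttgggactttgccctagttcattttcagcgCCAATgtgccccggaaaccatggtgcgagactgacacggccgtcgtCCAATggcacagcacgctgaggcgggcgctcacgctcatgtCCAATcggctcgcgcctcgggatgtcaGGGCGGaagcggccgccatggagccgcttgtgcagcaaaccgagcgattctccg
Xrcc3 promoter, chr12:111813830-111814129: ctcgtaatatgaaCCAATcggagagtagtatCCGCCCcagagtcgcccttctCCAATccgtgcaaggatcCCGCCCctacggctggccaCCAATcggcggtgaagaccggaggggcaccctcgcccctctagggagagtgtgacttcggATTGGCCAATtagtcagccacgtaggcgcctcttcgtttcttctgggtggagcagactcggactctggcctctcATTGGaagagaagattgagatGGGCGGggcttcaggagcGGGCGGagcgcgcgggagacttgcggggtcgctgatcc

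The RefSeq start lay 69 bases from the table's gene start for Atm, 28 bases for Rad9b and 6 bases for Xrcc3. It lay 0 bases away for Fancf and Rad51c. For Xrcc6, not shown but counted below, it lay 28534 bases away. The Xrcc3 promoter, the 1 of these that belongs to a gene that rose, held 6 CCAAT and 4 GC boxes, the Fancf promoter 3 and 1, the Rad9b promoter 1 and 3, and the Atm promoter 1 of each. Rad51c had 1 GC box and no CCAAT match in this window. An ETS match was in the Atm and Rad51c promoters, 1 in each. Of all 32851 RefSeq promoters in the reference, 37.4% held CCAAT, against 29 of the 52 repair genes with an entry (55.8%). GGGCGG was in 35.7% of all promoters and in 30 of the 52 (57.7%), including all 8 called genes with an entry (Atm, Ercc2, Fancf, Rad51ap2, Rad51c, Rad9b, Xrcc3 and Xrcc6). CCGGAAG was in 8.86% and in 11 of the 52 (21.2%). The cAMP response motif TGACGTCA was in 1.79% and in 1 of the 52 (1.92%), and TTTCGCGC, an E2F motif, in 0.323% and in 1 of the 52 (1.92%). Repair gene promoters were also richer in G and C, with a median of 59.17% against 52.67% for all promoters. Their median count of CG was 23.5, against 7 for all promoters. The background was every entry, not matched by gene type or expression, while each repair gene gave 1 promoter. Such matches describe letters and not bound sites, and motifs made of G and C are found more often where the base composition is richer in them.

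Atm and its neighbour moved in opposite directions. Npat, an activator of histone gene transcription whose start lies 307 bp from that of Atm, was at 8.09, 9.52 and 7.61 FPKM in Bcas2 cKO, against 5.19, 4.73 and 5.89 FPKM in control. It rose (log2 fold change 0.58, SE 0.11, limma adjusted p 0.0172) while Atm fell; it did not pass without Bcas2 cKO library 3 (0.0525) or 4 (0.0514), nor after rescaling without the hormone genes (0.0616). Npat is no repair gene and was singled out after its values were seen. In the 11 pairs in which both genes were tested it was the 1 neighbour called. The neighbours of Xrcc3 (Zfyve21, 297 bp away), Rad9b (Vps29, 136 bp) and Fancf (Gas2, 252 bp) had log2 fold changes of 0.05, -0.12 and -0.09. Tex14, 111 bp from Rad51c, was under the threshold for testing. Whether the 2 genes of a pair differed in their response was not tested.

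**Figure D2:**
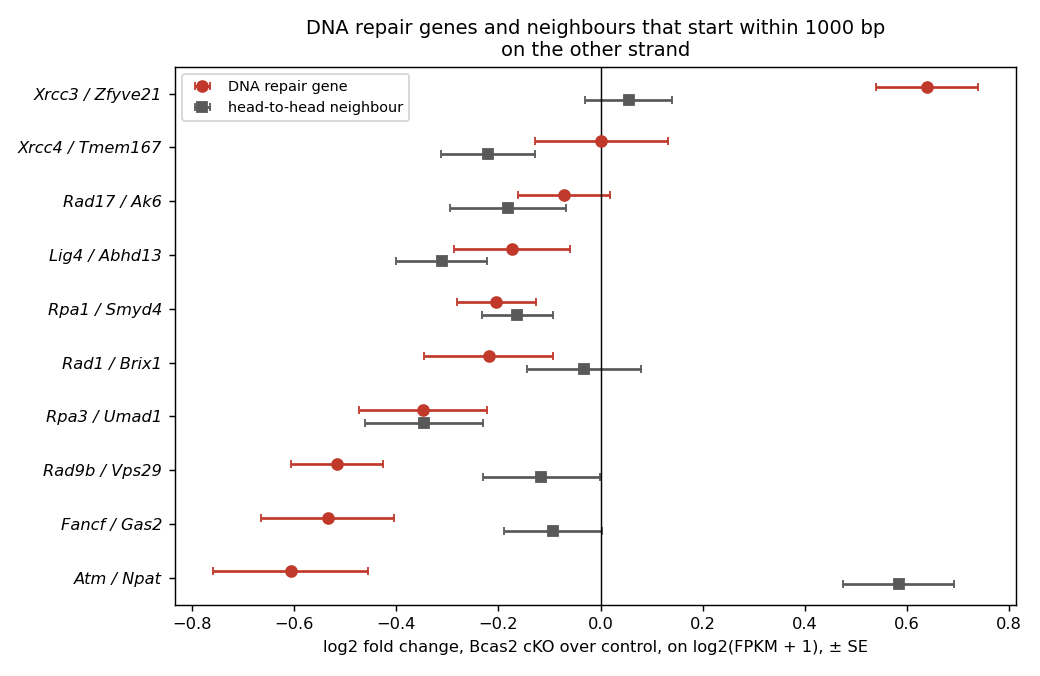
Log2 fold change (Bcas2 cKO over control, on the log2(FPKM + 1) scale) with SE for 10 of the 11 pairs of a repair gene (red circles) and the protein-coding gene that starts within 1000 bp on the other strand (grey squares). Atm lies at -0.61 and Npat at 0.58; the neighbours of Xrcc3, Rad9b and Fancf lie near 0.

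Among the checkpoint genes, 5 of 6 were tested, 1 rose and 2 fell. For this and each later role, the shares over all genes tested were 6.97% that rose and 7.55% that fell. Each role holds few genes, and its counts were not tested against those shares. Rad9a (ENSMUSG00000024824; chromosome 19, 4195198 to 4201603), a subunit of the 9-1-1 clamp that marks damaged DNA for checkpoint kinases, was at 7.95, 7.94 and 8.05 FPKM in Bcas2 cKO libraries 3, 4 and 5, against 4.34, 4.09 and 3.73 FPKM in control libraries 1, 3 and 4. The lowest Bcas2 cKO value was well above the highest control value, and the spread within Bcas2 cKO was small. Mean levels were 7.98 ± 0.0595 and 4.05 ± 0.311 FPKM (SD, n = 3 each), the log2 fold change was 0.83 (SE 0.08) and limma's adjusted p was 0.00218, at most 0.0131 when any 1 library was left out. It was the largest rise among the tested repair genes.

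Rad9b (ENSMUSG00000038569; chromosome 5, 122323223 to 122354233), the paralogue of Rad9a, went the other way. It was at 1.53, 1.64 and 1.65 FPKM in Bcas2 cKO, against 2.71, 2.67 and 2.80 FPKM in control, with no overlap and a spread of less than 0.2 FPKM within either group. It fell (log2 fold change -0.52, SE 0.09, limma adjusted p 0.0144), and did not pass without control library 4 (0.0547) or Bcas2 cKO library 3 (0.0556). The other proteins of the clamp are Rad1 and Hus1, and Rad17 loads it onto DNA. Rad1 was at 1.74, 1.33 and 1.58 FPKM in Bcas2 cKO and 1.70, 2.28 and 1.93 FPKM in control. Rad17 was at 4.55, 4.73 and 4.33 FPKM in Bcas2 cKO and 4.26, 5.01 and 5.22 FPKM in control. The groups overlapped for Rad1 and Rad17, and neither passed. Hus1 was at 4.57, 3.74 and 3.78 FPKM in Bcas2 cKO and 3.37, 2.49 and 3.35 FPKM in control. Its groups did not overlap, with Bcas2 cKO above, and it was not called.

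Both Rad9 genes overlap an exon of a gene on the other strand, and no source used here says whether the authors counted by strand. Rad9a shares 225 exonic bases (9.53% of its exonic length) with Ppp1ca, a phosphatase subunit at 93.9 and 86.9 FPKM in Bcas2 cKO and control that was not called (log2 fold change 0.11, limma adjusted p 0.46). Rad9b shares 1002 bases (23.2%) with Pptc7, a mitochondrial phosphatase gene that fell too (5.54 and 7.31 FPKM in Bcas2 cKO and control, log2 fold change -0.35, limma adjusted p 0.0261). The Rad9a overlap is that of GENCODE M21, where Rad9a has 2362 exonic bases, against a deposited gene length of 2046 bases. Its coordinates there also differ, so the overlap in the authors' gene model may differ. Without strand, reads from overlapping exons cannot be told apart.

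Atm (ENSMUSG00000034218; chromosome 9, 53439149 to 53536740), the kinase that responds to double-strand breaks, was at 4.86, 4.60 and 4.96 FPKM in Bcas2 cKO, against 8.17, 6.01 and 9.73 FPKM in control. The groups did not overlap, the Bcas2 cKO values were close together and the control values were not. Atm fell (4.81 ± 0.184 and 7.97 ± 1.87 FPKM, a log2 fold change of -0.61, SE 0.15, limma adjusted p 0.0419). It passed without control library 3, its lowest control value (0.013), and failed without each of the other 5 libraries (0.0836 without control 1, 0.0936 without control 4, and 0.107, 0.115 and 0.1 without Bcas2 cKO 3, 4 and 5). It also failed when libraries were scaled to total reads (0.117). Atr, the kinase that answers to RPA-coated single-stranded DNA, was under the threshold for testing, at 1.01, 0.781 and 0.763 FPKM in Bcas2 cKO and 0.894, 0.806 and 1.11 FPKM in control, and the groups overlapped. Its level comes from 257 to 433 reads divided by a gene length of 23629 bases, all its annotated exons together.

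The single-strand binding protein RPA is the platform from which ATR is activated, and its 3 subunits were all tested and none was called. Rpa1, the large subunit, was at 11.8, 12.5 and 11.1 FPKM in Bcas2 cKO, against 13.9, 14.3 and 13.0 FPKM in control (log2 fold change -0.20, SE 0.08, limma adjusted p 0.122). Rpa3, the small subunit, was at 7.04, 6.60 and 4.90 FPKM in Bcas2 cKO, against 8.10, 8.48 and 7.61 FPKM in control (-0.35, SE 0.13, 0.111). For both, the groups did not overlap, with Bcas2 cKO below control, and neither passed the test. Rpa2, the middle subunit, was at 3.17, 2.81 and 2.56 FPKM in Bcas2 cKO and 1.75, 1.91 and 2.82 FPKM in control, with overlap (0.30, SE 0.15, 0.219).

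**Figure D3:**
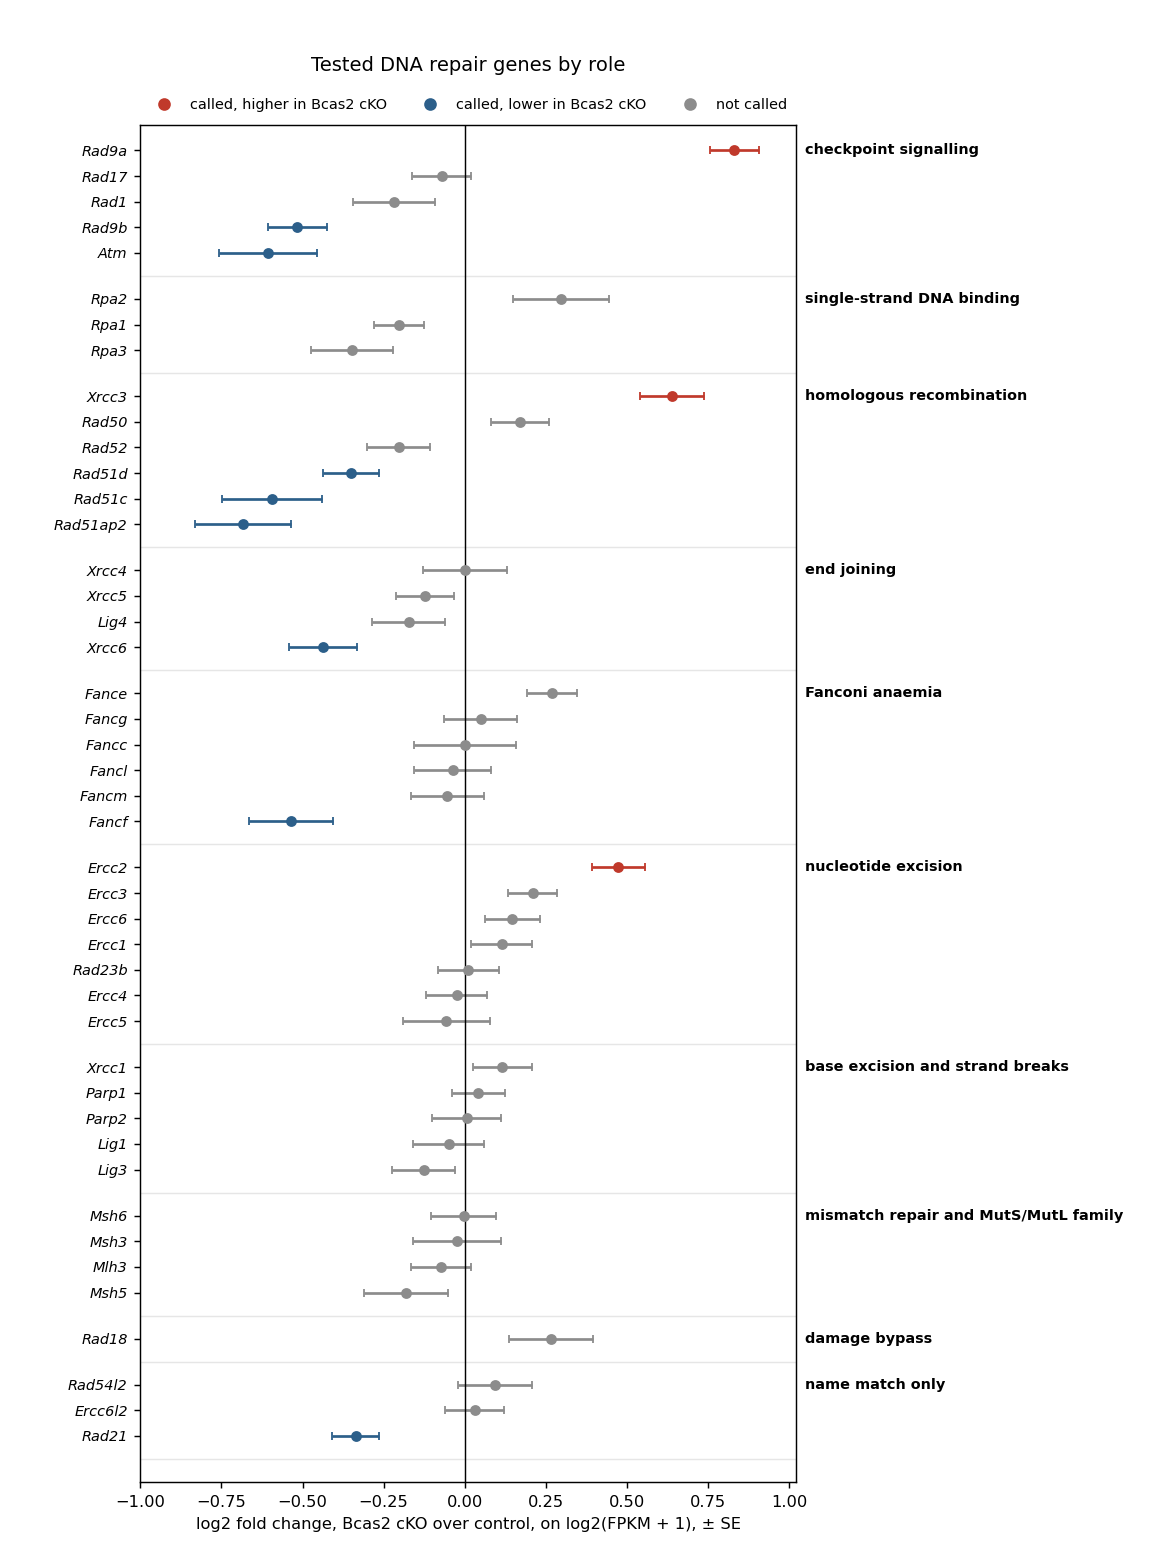
Log2 fold change (Bcas2 cKO over control, on the log2(FPKM + 1) scale) with SE for 44 of the 47 tested repair genes, grouped by role and ordered within a role; red marks genes that rose, blue genes that fell and grey genes not called. Calls in both directions occur among checkpoint and recombination genes, and the 5 base excision genes lie between -0.13 and 0.12.

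Of 14 homologous recombination genes only 6 reached the threshold for testing, of which 1 rose and 3 fell. Xrcc3, Rad51c and Rad51d are paralogues whose proteins help recombination filaments to form on single-stranded DNA. Xrcc3 (ENSMUSG00000021287; chromosome 12, 111803192 to 111813873) was at 19.2, 17.9 and 21.4 FPKM in Bcas2 cKO, against 13.4, 11.3 and 11.8 FPKM in control. It was the most abundant of these 14 genes in both groups and rose without overlap (19.5 ± 1.79 and 12.2 ± 1.14 FPKM, a log2 fold change of 0.64, SE 0.10, limma adjusted p 0.00996, at most 0.0421 when any 1 library was left out).

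Rad51c (ENSMUSG00000007646; chromosome 11, 87376645 to 87404954) makes a protein that pairs with XRCC3. It was at 0.654, 1.01 and 0.688 FPKM in Bcas2 cKO, against 1.34, 1.89 and 1.86 FPKM in control, or 52, 78 and 52 reads against 93, 112 and 120. Its groups did not overlap, and its Bcas2 cKO mean of 0.784 FPKM was under the threshold that its control mean of 1.70 FPKM passed. It fell while its partner rose (log2 fold change -0.60, SE 0.15, limma adjusted p 0.0463). It failed without control library 3 (0.125) or 4 (0.135), without Bcas2 cKO library 3 (0.13), 4 (0.0684) or 5 (0.124), with a pseudocount of 0.1 and when scaled to total reads (0.066).

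Rad51d (ENSMUSG00000018841; chromosome 11, 82876434 to 82890614), whose protein works in another complex with RAD51C, was at 4.36, 4.25 and 4.89 FPKM in Bcas2 cKO, against 5.57, 6.42 and 6.05 FPKM in control. Rad51ap2 (ENSMUSG00000086022; chromosome 12, 11456079 to 11462928) was at 2.08, 1.66 and 2.68 FPKM in Bcas2 cKO, against 3.36, 4.36 and 4.37 FPKM in control. Neither gene's groups overlapped, and Rad51ap2 had the largest fall of the tested repair genes on the log2(FPKM + 1) scale; with a pseudocount of 0.1, Rad51c fell further (-1.03, against -0.90 for Rad51ap2). The log2 fold change was -0.35 for Rad51d (SE 0.09, limma adjusted p 0.0381) and -0.68 for Rad51ap2 (SE 0.15, adjusted p 0.0276). Rad51d passed without control library 1 (0.042) and failed without control 3 (0.0938) or 4 (0.102), without Bcas2 cKO 3 (0.123), 4 (0.111) or 5 (0.0631), and when scaled to total reads (0.115). Rad51ap2 failed without control 3 (0.0809) or 4 (0.0894) and without Bcas2 cKO 3 (0.0818) or 4 (0.0762). The other tested recombination genes are Rad50, of the end-resecting MRN complex, and Rad52, an annealing protein. Rad50 was at 3.43, 3.42 and 3.88 FPKM in Bcas2 cKO and 3.10, 2.83 and 3.28 FPKM in control. Rad52 was at 2.03, 1.90 and 1.71 FPKM in Bcas2 cKO and 2.21, 2.29 and 2.44 FPKM in control. Neither passed, although the groups of neither overlapped.

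The remaining recombination genes were low. Brca2, a recombination mediator, was at 0.610, 0.537 and 0.612 FPKM in Bcas2 cKO and 0.421, 0.402 and 0.554 FPKM in control. Brca1, which promotes end resection, was at 0.245, 0.193 and 0.414 FPKM in Bcas2 cKO and 0.236, 0.0868 and 0.136 FPKM in control, resting on 29 to 61 and 10 to 32 reads. The groups overlapped for both genes.

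**Figure D4:**
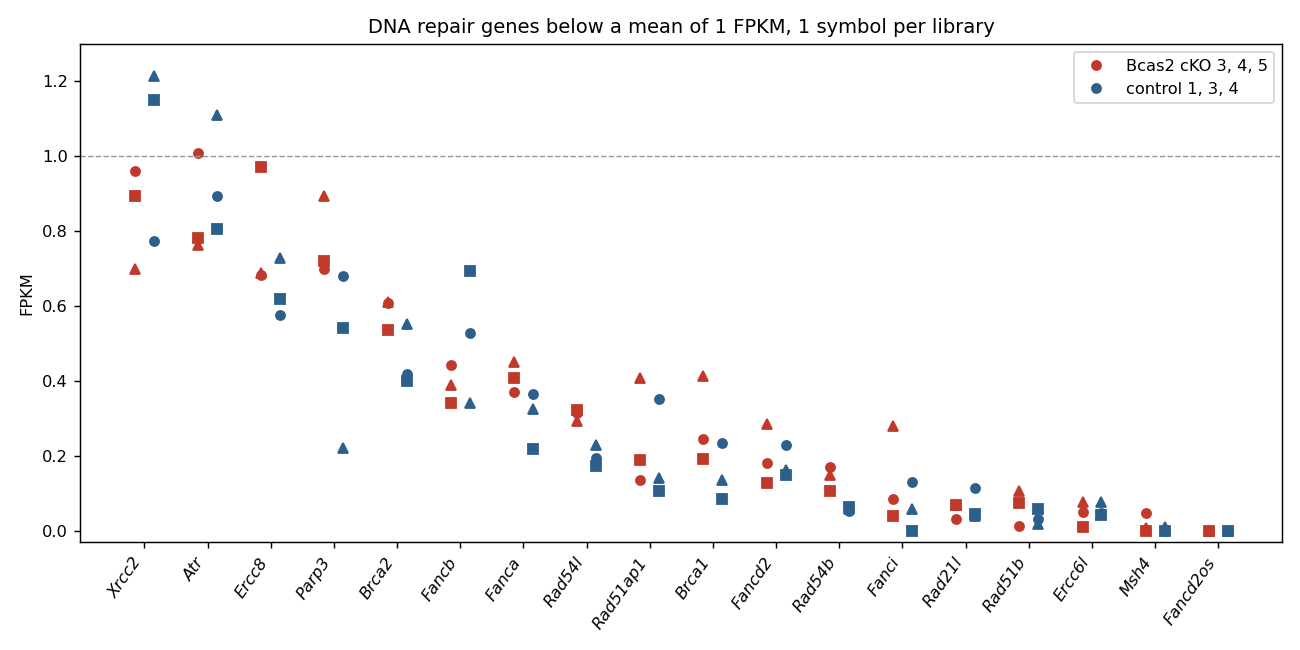
FPKM of 18 of the 19 repair genes with a mean under 1 FPKM (dashed line), 1 symbol per library (circle, square and triangle in the order of the libraries named in the legend), Bcas2 cKO in red left of control in blue. Values run from 0 for Fancd2os in every library to 1.21 FPKM for Xrcc2 in control library 4, and the groups are apart for 4 genes.

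Altogether 19 of the 66 genes had a mean under 1 FPKM and were not tested. Xrcc2, a partner of Rad51d in its complex, lay just below the threshold with a mean of 0.949 FPKM, and Atr with 0.894 FPKM. Rad18 and Msh3 lay just above it with 1.01 FPKM each, then Fancc with 1.03 FPKM. In 4 of the 19, all Bcas2 cKO values lay above all control values, and in 0 below. They were Parp3, a poly-ADP-ribose polymerase (0.700, 0.722 and 0.893 FPKM in Bcas2 cKO, 0.682, 0.541 and 0.221 FPKM in control), Fanca, of the Fanconi core complex (0.371, 0.409 and 0.450 FPKM in Bcas2 cKO, 0.367, 0.220 and 0.326 FPKM in control), and the recombination translocases Rad54l and Rad54b. Rad54l was at 0.315, 0.324 and 0.293 FPKM in Bcas2 cKO and 0.196, 0.173 and 0.230 FPKM in control. Rad54b, with 11 to 18 reads in Bcas2 cKO and 5 in each control library, shares 35.8% of its exonic bases with Fsbp on the same strand, so its reads are uncertain. Fanca shares 10.5% of its exonic bases with Zfp276 on the other strand, which rose (5.72 and 3.96 FPKM in Bcas2 cKO and control, log2 fold change 0.44, limma adjusted p 0.0144), and Rad54l shares 15.4% with Lrrc41 on the other strand (10.6 and 10.9 FPKM, not called). These 4 were singled out after their values were seen. No share over all genes under 1 FPKM was taken, so there is nothing to set the count of 4 against.

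All 4 end joining genes were tested and 1 fell. Xrcc6 (ENSMUSG00000022471; chromosome 15, 81987835 to 82040085) encodes Ku70, which with Ku80 caps broken ends. It was at 11.2, 11.0 and 11.3 FPKM in Bcas2 cKO, against 13.2, 16.3 and 17.2 FPKM in control, with no overlap and a tight Bcas2 cKO group (11.2 ± 0.113 and 15.5 ± 2.12 FPKM). The log2 fold change was -0.44 (SE 0.10, limma adjusted p 0.0371). It passed without control library 1 (0.0116) and failed without control 3 (0.0949) or 4 (0.103), without Bcas2 cKO 3 (0.107), 4 (0.102) or 5 (0.0988), and when scaled to total reads (0.0857). Xrcc6 shares 344 exonic bases (7.69%) with Desi1 on the other strand, at 34.3 and 40.1 FPKM in Bcas2 cKO and control. Desi1 was not called (log2 fold change -0.21, limma adjusted p 0.265), and without strand its reads there cannot be told apart from those of Xrcc6. Xrcc5, which encodes Ku80, was at 11.6, 13.4 and 11.9 FPKM in Bcas2 cKO and 12.4, 13.8 and 14.3 FPKM in control and did not pass (-0.12, SE 0.09, adjusted p 0.388). Whether the 2 Ku genes differed in their response was not tested. Lig4 and Xrcc4, the ligase and its scaffold, were at 1.51 to 2.12 FPKM in Bcas2 cKO and 1.54 to 2.36 FPKM in control, and neither was called.

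Of 10 Fanconi anaemia genes 6 were tested and 1 fell. Fancf (ENSMUSG00000092118; chromosome 7, 51860577 to 51862267), an adaptor of the core complex with a single exon, was at 2.67, 4.07 and 2.95 FPKM in Bcas2 cKO, against 4.81, 5.13 and 5.27 FPKM in control. The groups did not overlap, although Bcas2 cKO library 4 came close to control. The log2 fold change was -0.53 (SE 0.13, limma adjusted p 0.0375). It passed without Bcas2 cKO library 4 (0.0193) and failed without Bcas2 cKO 3 (0.108) or 5 (0.111), without control 1 (0.0587), 3 (0.0936) or 4 (0.109), and when scaled to total reads (0.0741). Fancf shares 15.0% of its exonic bases with Gas2 on the other strand, which was not called. Fance, the core subunit that contacts FANCD2, was at 8.63, 7.85 and 9.01 FPKM in Bcas2 cKO, against 6.85, 7.13 and 6.63 FPKM in control; the groups did not overlap but it missed the threshold (0.27, SE 0.08, adjusted p 0.0608). Scaled to total reads it passed (0.0313).

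Nucleotide excision had 8 of 9 genes tested, and 1 rose. Ercc2 (ENSMUSG00000030400; chromosome 7, 19382010 to 19395694), the XPD helicase of the repair and transcription factor TFIIH, was at 7.68, 7.93 and 7.45 FPKM in Bcas2 cKO, against 5.62, 5.44 and 4.75 FPKM in control. The groups stood apart (7.69 ± 0.239 and 5.27 ± 0.460 FPKM, a log2 fold change of 0.47, SE 0.08, limma adjusted p 0.0139). It did not pass without Bcas2 cKO library 3 (0.0532) or 4 (0.0514) or after rescaling without the hormone genes (0.0699). Exons of Ercc2 overlap those of the antisense gene Gm26852 (24.6% of its exonic bases; under 1 FPKM in every library) and of Klc3 on the other strand (17.8%; 7.44 and 6.27 FPKM in Bcas2 cKO and control, not called). Ercc3, the second TFIIH helicase, was at 10.6, 11.1 and 11.2 FPKM in Bcas2 cKO, against 9.79, 9.64 and 8.64 FPKM in control, without overlap; it was not called on the deposited scale (log2 fold change 0.21, SE 0.08, limma adjusted p 0.111) and passed when scaled to total reads (0.0486). Rad23b, a partner in damage recognition and the most abundant of these 9 genes, was at 22.5, 26.3 and 21.4 FPKM in Bcas2 cKO and 22.5, 23.7 and 23.0 FPKM in control (log2 fold change 0.01, SE 0.09, limma adjusted p 0.947).

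No base excision or strand break gene was called among the 5 tested of 6, and the groups overlapped for each of the 5. Parp1, the main sensor of strand breaks, was at 13.0, 13.8 and 11.9 FPKM in Bcas2 cKO and 13.1, 11.9 and 12.6 FPKM in control (log2 fold change 0.04, SE 0.08, limma adjusted p 0.761). Parp2, its paralogue, averaged 7.61 ± 0.789 FPKM in Bcas2 cKO and 7.58 ± 0.863 FPKM in control (0.01, SE 0.11, 0.979). The scaffold Xrcc1 and the ligases Lig3 and Lig1 averaged 7.59, 3.49 and 2.38 FPKM in Bcas2 cKO and 6.91, 3.91 and 2.49 FPKM in control.

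In mismatch repair 6 of 7 genes were tested. Msh6, a subunit of the dimer that senses base mismatches, was at 5.74, 6.70 and 5.55 FPKM in Bcas2 cKO and 5.39, 6.15 and 6.50 FPKM in control. The groups overlapped and it did not pass (log2 fold change -0.00, SE 0.10, limma adjusted p 0.986). Msh4 and Msh5 belong to the same family by sequence and act in meiosis; Msh4 had at most 6 reads in any library.

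Rad18, the ubiquitin ligase that opens damage bypass at stalled forks, was at 1.11, 1.22 and 1.25 FPKM in Bcas2 cKO, against 0.751, 0.805 and 0.916 FPKM in control; the groups did not overlap and it was not called (log2 fold change 0.27, SE 0.13, limma adjusted p 0.213). Another 6 genes were taken in by name and are not core members of a repair pathway, of which 3 were tested and 1 fell. Rad21 (ENSMUSG00000022314; chromosome 15, 51962240 to 51991747), the ring-closing subunit of cohesin, was the most abundant of all 66 genes, at 42.4, 41.0 and 43.7 FPKM in Bcas2 cKO, against 54.0, 54.8 and 52.4 FPKM in control. The groups were far apart for their spread, and Rad21 fell (42.3 ± 1.34 and 53.7 ± 1.23 FPKM, -0.34, SE 0.07, adjusted p 0.0261). It passed without control library 1 (0.0477) and failed without control 3 (0.054) or 4 (0.0706) and without Bcas2 cKO 3 (0.0985), 4 (0.0874) or 5 (0.0695). Scaled to total reads its log2 fold change was -0.20 (0.17). Rad54l2 averaged 4.22 ± 0.368 FPKM in Bcas2 cKO and 3.90 ± 0.587 FPKM in control and was not called (0.09, SE 0.11, 0.615).

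Repair genes outside these name families were read from a list of 118 found in the table, of which 98 were tested. In Bcas2 cKO 10 of them rose (10.2%, against 6.97% of all genes tested) and 4 fell (4.08%, against 7.55%), with a median log2 fold change of 0.08. The largest rises were those of Rfc5, Wrn and Pcna. Rfc5, a subunit of the loader of the PCNA clamp, averaged 6.08 ± 0.341 FPKM in Bcas2 cKO and 2.60 ± 0.331 FPKM in control (0.98, SE 0.10, limma adjusted p 0.00254). Wrn, a RecQ helicase, averaged 7.19 ± 0.559 FPKM in Bcas2 cKO and 3.30 ± 0.703 FPKM in control (0.94, SE 0.13, 0.00639). Pcna, the clamp itself, averaged 26.7 ± 3.48 FPKM in Bcas2 cKO and 14.6 ± 2.13 FPKM in control (0.83, SE 0.13, 0.0116). These 3 passed without each library in turn. Of the 16 markers of proliferating cells, which include Pcna, the replication helicase subunits Mcm2, Mcm4 and Mcm5 also lay wholly above control. They averaged 2.60, 4.40 and 1.78 FPKM in Bcas2 cKO and 1.66, 3.39 and 1.01 FPKM in control and were not called (limma adjusted p 0.0691, 0.0867 and 0.0583). Groups overlapped for the other cell cycle markers except Pcna, among them Mki67, at 0.520, 0.418 and 1.06 FPKM in Bcas2 cKO and 1.04, 0.317 and 0.420 FPKM in control. The part of cycling cells in these rises was not tested.

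In the same list Trp53, the p53 gene, averaged 10.8 ± 0.998 FPKM in Bcas2 cKO and 6.92 ± 0.893 FPKM in control (log2 fold change 0.58, limma adjusted p 0.0177). Top3a (0.48), the glycosylase Tdg (0.46), the demethylase Alkbh3 (0.45) and the ubiquitin ligase Rnf8 (0.43) also rose. Neil2, a glycosylase that starts base excision, had the largest fall: it averaged 4.03 ± 0.912 FPKM in Bcas2 cKO and 7.88 ± 0.939 FPKM in control (-0.83, SE 0.15, adjusted p 0.0165). Rmi1 (-0.44), whose protein works in 1 complex with that of Top3a, and Ube2a (-0.41), a ubiquitin-conjugating partner of Rad18, fell. Ube2b, in the same list, averaged 51.6 and 54.3 FPKM in Bcas2 cKO and control and was not called. Without 1 library, 4 fits of 6 lost Trp53 (up to 0.0643), 3 lost Top3a (up to 0.0838), 4 lost Tdg (up to 0.0762), 5 lost Alkbh3 (up to 0.105), 4 lost Rnf8 (up to 0.0761), 4 lost Rmi1 (up to 0.0862), 5 lost Ube2a (up to 0.0895) and 1 lost Neil2 (0.0622). After rescaling without the islet hormone genes, Trp53 (0.0666), Top3a (0.0833), Tdg (0.116), Alkbh3 (0.105) and Rnf8 (0.101) did not pass, and scaled to total reads Rmi1 (0.0952) and Ube2a (0.0726) did not. With no filter on low values, Top3a, Tdg, Alkbh3, Rnf8, Neil2, Rmi1 and Ube2a missed the threshold (0.0519 to 0.0842). In the fit as reported, limma called 1993 of all 13723 genes tested in either direction. The counts by pathway are few genes each and were not tested against that share. By pathway, limma called 3 of 13 tested recombination genes, 3 of 17 base excision genes, 2 of 13 checkpoint genes, 2 of 11 mismatch repair genes, 2 of 11 damage bypass genes, 1 of 8 end joining genes, 1 of 3 direct reversal genes, 0 of 15 nucleotide excision genes and 0 of 7 Fanconi genes. Among these are Paxx of end joining, which rose (0.40, adjusted p 0.0439), and Hltf of damage bypass, which fell (-0.36, 0.0379), both named after their values were seen.

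**Figure D5:**
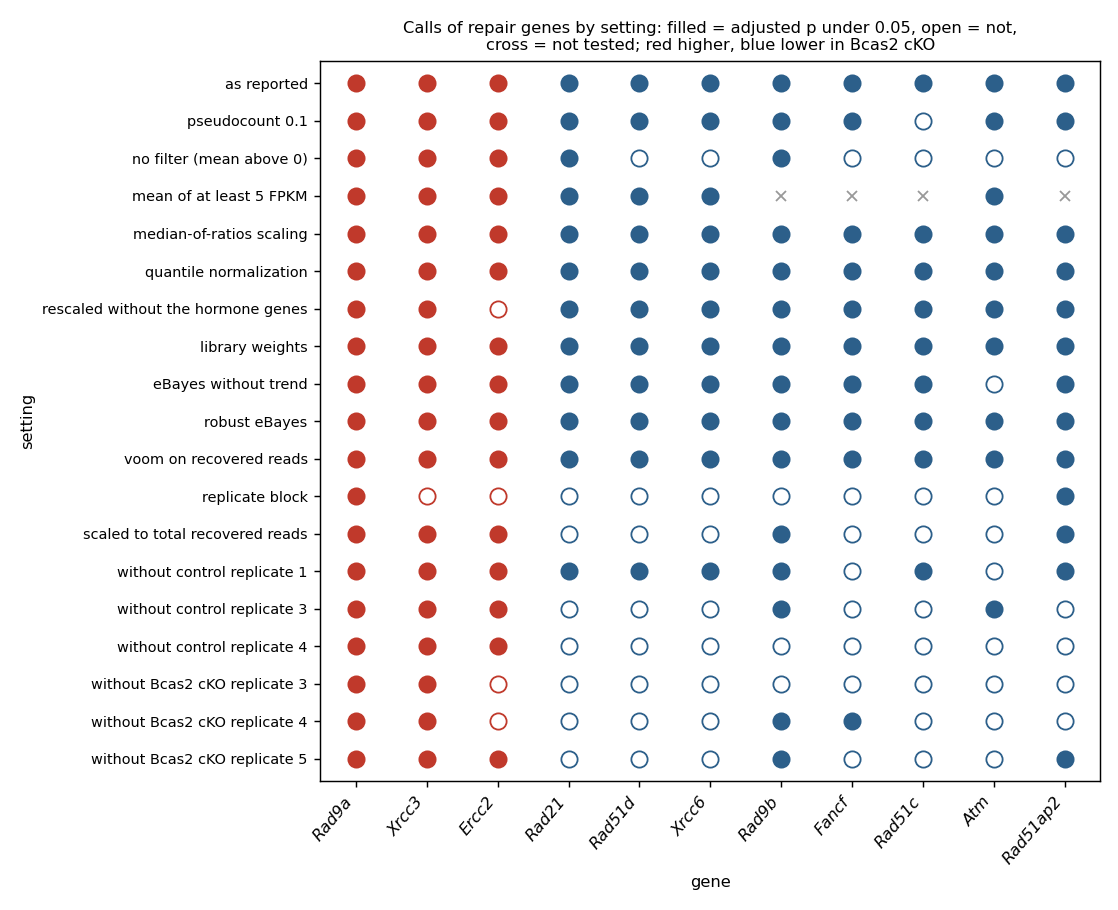
Calls of 11 of the 12 repair genes (columns, those that rose in red and the 8 that fell in blue) under each way of processing (rows): filled circles passed at an adjusted p under 0.05, open circles did not, crosses were not tested. Rad9a is filled in every row and Xrcc3 in all but the row with a replicate block; the alternative with a minimum log2 fold change is not drawn.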

How the data were processed

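The table deposited by the authors gives FPKM per gene, a read count divided by gene length and a per-library depth, with 1 column per library, per the file headers. The build was GRCm38 (mm10), per the submitters' processing notes, and libraries came from a SMARTer mRNA-Seq kit, per the labels. No source used here names the aligner, the counter or the strand setting. The labels name Bcas2 cKO samples 1, 3 and 4 and the table columns 3, 4 and 5, so library 5 was used by its group alone.

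Values above 0 were whole multiples of 1 read within 0.01 for 100% of them, which gave reads per gene. The authors' FPKM imply depths of 0.89 to 1.11 times the reads found, a further scaling between libraries.

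Genes that averaged 1 FPKM or more were tested on log2(FPKM + 1), which understates changes of low genes, with limma 3.58.1 (eBayes with trend) in R 4.3.3, without a block, and adjusted over 13723 genes. The fit was tested on simulated data. Bcas2 was also tested with an exact permutation test. As alternatives, voom on the recovered reads, other scalings, filters, pseudocounts and variance settings, a replicate block and leaving out each library were tried. Overlaps and starts came from GENCODE M21, with pandas 2.3.3 and Python 3.11.15.

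Named with values were all called genes (of the other repair genes the 12 largest changes), a set of well-known genes, the 2 highest per role, those nearest the threshold and Bcas2; further genes are named with levels only. The genes and lists were chosen with earlier results of these data known. Some of these genes, and their places in the figures, are left out and not reported.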

Additional observations from a re-analysis of the deposited data

How the results depend on the processing

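None of the named repair genes that passed changed direction under any of the 13 alternatives or the 6 fits without 1 library. Adding a limit of 1 on the absolute log2 fold change left 0 repair genes in either direction, 0 and 0 other repair genes, and 303 higher and 104 lower of all genes. A mean of at least 5 FPKM left 4 lower repair genes. With no filter, 2 repair genes were lower, 5 other repair genes were higher and 0 lower, and 628 and 516 of all genes passed as higher and lower, where more genes were tested. Voom on the recovered reads kept all 12 calls and called Bcas2 (-0.45, adjusted p 0.0468); other repair genes then came to 15 higher and 6 lower. Library weights called 13 repair genes.

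Scaled to total reads, chosen after seeing the data, 2 repair genes were lower, 425 of all genes and 1 other repair gene, and 6 repair genes were higher (median 0.067). Rescaled without the hormone genes, 2 repair genes were higher, 613 of all genes and 3 other repair genes, the median was -0.11, and Bcas2 passed at -0.52 (0.035). Quantile normalization moved the median to -0.060.

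Without 1 library at a time, 2 to 4 repair genes were higher and 0 to 6 lower, with a median of -0.058 to -0.013. Other repair genes came to 4 to 8 higher and 0 to 6 lower, all genes to 466 to 956 higher and 391 to 994 lower, and Bcas2 to -0.52 to -0.27. The cause of these shifts was not tested.

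The groups share the library numbers 3 and 4. Correlations of deviations were -0.149 and 0.0453 between same-numbered libraries, and from -0.129 to 0.118 between differently numbered ones. With 3 libraries per group, these values cannot decide whether the numbers pair the libraries. With the number as a replicate block, 1 repair gene was higher and 1 lower (median -0.056), 352 and 186 of all genes, and 2 and 0 other repair genes. The group difference in that fit rests on libraries 3 and 4 of each group alone. The limit of 1 FPKM, not depth alone, kept 19 repair genes from the test: Atr had 257 to 433 reads and Brca1 10 to 61.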
